A study of Homo sapiens with 36 samples.

Results

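The 33 interferon response genes described here were chosen by symbol from a list and followed across BE(2)-C and IMR-32 cells, human neuroblastoma lines, after transfection of small interfering RNA (siRNA). Every culture received the negative control siRNA (Neg Co. No. 1), HDAC11 siRNA no. 1 or HDAC11 siRNA no. 2 and was harvested 42, 48 or 54 h later. HDAC11 is a histone deacetylase, and the study asked which transcripts change when it is depleted. No mock-transfected or untransfected array was analysed here, so that every difference is relative to cells that received another siRNA. RNA was measured on 36 bead arrays, 18 per cell line, with 2 replicates in each of the 18 groups. The replicates are labelled biological, but whether they came from separate cultures is not stated, and p-values measure only the spread between these samples. Of the 33 genes, 32 had a probe (51 probes in all), out of 20045 genes with a probe of 1 symbol. STAT2, a factor that carries the interferon signal to the nucleus, had none.

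Cells release interferons when they sense foreign nucleic acid, and double-stranded RNA, the form of siRNA, is among the ligands of the sensors. Interferon binds receptors on the cell surface, Janus kinases act on factors that include STAT2, and a complex that contains IRF9 binds the interferon-stimulated response element (ISRE) in the promoters of antiviral genes. A different element, the gamma-activated site (GAS), is used in the response to interferon gamma. The induced proteins cut or sequester viral RNA, block translation and entry, and adjust the pathway itself, for which reason these genes are commonly read as a sign that a transfected RNA was sensed.

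To show the elements by which the group is defined biologically, the promoters of RefSeq (build GRCh38.p14, 300 bases per promoter, from 250 before to 50 after the start) were searched on both strands for the ISRE core GAAANNGAAA and the GAS core TTCNNNGAA. The ISRE core was found for 19 of the 25 members with a promoter entry, against 4.38% of 27305 genes, and the GAS core for 9 of 25, against 9.38%. A match is a description of these letters and not a bound site. IFIT2, MX2, OAS2, OASL, IRF3, IRF7, IFITM2 and USP18 had no entry. The following stretches, 5′ to 3′ on the strand of the gene with the matches in capitals, belong to members whose signals are described further on. OAS3 (chr12:112938324-112938473), ISG15 (chr1:1013377-1013426), IFI44 (chr1:78649729-78649788), IFI6 (chr1:27672273-27672352, minus strand) and SAMD9 (chr7:93118080-93118129, minus strand) show the ISRE core, which in ISG15 matches 2 times in overlapping letters. OAS1 (chr12:112906782-112906841) had no ISRE core in its window and shows the GAS core instead.
OAS3: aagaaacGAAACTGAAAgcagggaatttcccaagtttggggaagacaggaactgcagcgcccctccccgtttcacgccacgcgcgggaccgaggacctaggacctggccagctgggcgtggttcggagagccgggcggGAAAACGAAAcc
OAS1: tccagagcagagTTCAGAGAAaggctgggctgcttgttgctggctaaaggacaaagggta
ISG15: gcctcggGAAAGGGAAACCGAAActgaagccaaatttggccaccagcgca
IFI44: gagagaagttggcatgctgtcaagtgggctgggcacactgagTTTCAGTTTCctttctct
IFI6: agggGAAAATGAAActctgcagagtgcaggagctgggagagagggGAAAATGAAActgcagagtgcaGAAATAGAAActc
SAMD9: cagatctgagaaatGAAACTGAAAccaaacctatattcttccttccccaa
Set beside the signals described below, the core was found in 6 of 6 members with an entry that were detected on no array, in 4 of 6 detected on all arrays and in 9 of 12 detected on some. For the siRNAs, the sequence of no. 2 in HDAC11 (chromosome 3) is given by the study, and is shown because it is the reagent whose effect is compared with that of no. 1.
HDAC11 siRNA no. 2: gcgagacttcatggacgacaa

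Signals are quantile-normalized intensities. Detection of a probe required a detection p under 0.01 together with a signal higher than the background centre of the array, and 17094 to 19783 probes were detected per array. Background centres before normalization were 95.3 to 122, so that signals near 100 carry little of a transcript and their log2 differences are compressed. HDAC11 itself was detected on 0 of the 24 HDAC11 siRNA arrays and on 2 of the 12 control arrays. Its differences of -0.07, -0.03, -0.09 and -0.08 (siRNA no. 1 and no. 2 in BE(2)-C, then in IMR-32) had limma adjusted p of 0.641, 0.925, 0.425 and 0.596. The arrays thus did not show the knockdown, and with the probe at background in most controls a fall could not be measured. By qRT-PCR, the paper reports reduced HDAC11 mRNA after these siRNAs in both lines. The cells expressed the adrenergic neuroblastoma markers PHOX2A, TH, HAND2, GATA3, ISL1 and MYCN on all 36 arrays. DBH was detected on 18 BE(2)-C and 11 IMR-32 arrays. The latter included all 6 control arrays and none with siRNA no. 2. The summed signal of these 7 markers was 25613 to 43515. In IMR-32 the sum was 25613 to 27684 in controls, 27306 to 32017 with siRNA no. 1 and 28355 to 31513 with siRNA no. 2. In BE(2)-C it was 32874 to 37697, 37011 to 43515 and 36220 to 41570 in the same order. By limma against control, siRNA no. 1 raised 3 of the 7 in each line and lowered 0. Of all genes it raised 12.9% and lowered 11.5% in BE(2)-C, and raised 13.3% and lowered 10.9% in IMR-32. With siRNA no. 2, 3 rose and 0 fell in BE(2)-C (6.39% and 7.54% of all genes), while 2 rose and 1 fell in IMR-32 (6.02% and 7.28%). The markers are few, and nothing particular to them is read from these counts. Of 5 immune cell markers CD3E and LYZ were detected on no array, PTPRC on 1, CD14 on 18 BE(2)-C and 13 IMR-32 arrays, and CD68 on all, with summed signals of 716 to 1202. Of 7 markers of mesenchymal neuroblastoma cells, SNAI2 was detected on all arrays and FN1 and YAP1 on none. In BE(2)-C and IMR-32 respectively, CD44 was detected on 15 and 0 arrays, COL1A1 on 3 and 8, COL1A2 on 0 and 5, and PRRX1 on 1 and 0, and the 7 signals summed to 870 to 1093. The part of these markers in the results was not tested. As RNA was taken in bulk, fewer cells that express a gene and less RNA per cell cannot be told apart.

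Most members lay at or near the background. With the brightest probe of each gene, 7 of 32 (21.9%) were detected on all 36 arrays, 8 (25.0%) on none by any probe, and 17 on some, whereas 38.9% of all genes were detected on all arrays and 23.7% on none. The 8 undetected members were IFI27, IFIH1 (MDA5, a sensor of long double-stranded RNA), IFITM1, MX1 (a GTPase that blocks viral replication), OAS2, OASL, SAMD9 and TLR3 (the endosomal receptor of double-stranded RNA), with mean normalized signals of 94.7 to 111. MX1 and OAS2 are among the genes most often used as readouts of interferon action. So are ISG15 and IFIT1, which were detected on 25 and 18 of the 36 arrays. The 7 detected throughout were ADAR (which edits double-stranded RNA), EIF2AK2 (PKR, a kinase that halts translation on double-stranded RNA), IFI6, IRF9, IFIT5, IRF3 and PARP9. ADAR was the brightest, at 2173 to 3238 over all arrays.

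**Figure D1:**
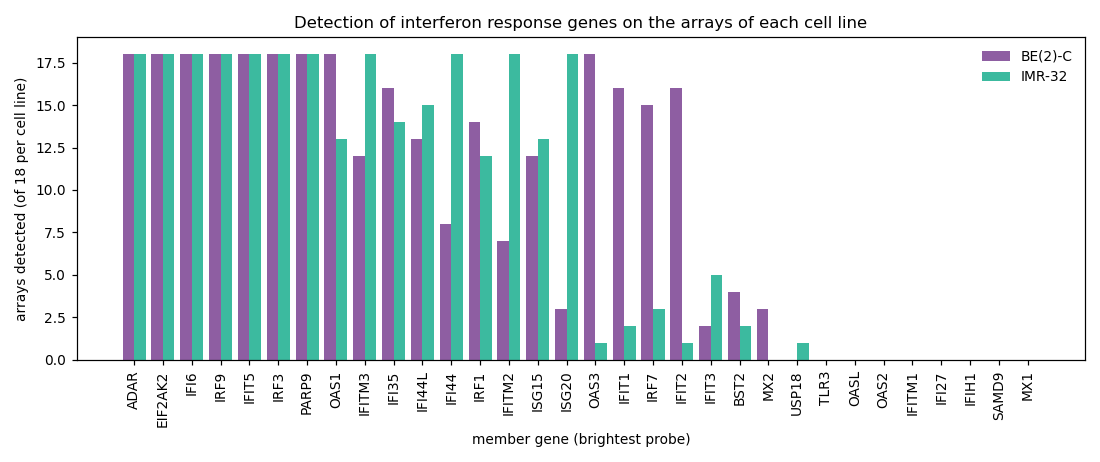
Number of arrays of each cell line (18 per line, vertical axis) on which each of the 32 interferon response genes (horizontal axis) was detected. IFI44, IFITM2 and ISG20 were detected on all 18 IMR-32 arrays and on 8, 7 and 3 BE(2)-C arrays, whereas OAS3, IFIT1, IFIT2 and IRF7 were detected on 18, 16, 16 and 15 BE(2)-C arrays and on 1, 2, 1 and 3 IMR-32 arrays.

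The other 17 members were detected in part of the arrays and differed in where. OAS1 was detected on 18 BE(2)-C and 13 IMR-32 arrays, IFI35 on 16 and 14, IFI44L on 13 and 15, IRF1 on 14 and 12, ISG15 on 12 and 13, and IFITM3 on 12 and 18. IFIT3, BST2 (tetherin, which holds budding virions at the cell surface), MX2 and USP18 (a protease that removes ISG15 and dampens receptor signalling) were detected on 2 and 5, 4 and 2, 3 and 0, and 0 and 1 arrays. Thus USP18, MX2, BST2 and IFIT3 were near background in both lines.

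The first comparison was between each HDAC11 siRNA and the negative control siRNA, averaged over the 3 time points, with 6 arrays against 6. The 4 comparisons share the control arrays of their cell line. Few members changed. In BE(2)-C cells given siRNA no. 1, OAS3, ISG15, OAS1 and EIF2AK2 fell and IFIT1 rose. In IMR-32 cells given siRNA no. 1, IRF1, IFITM2, ISG15 and IFITM3 fell and ISG20 rose. With siRNA no. 2, OAS3 fell and IRF1 rose in BE(2)-C, and IFI44 fell and IRF9 rose in IMR-32.

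Counts were set beside those over all genes in the same limma fit. Higher members were 1 of 32 in BE(2)-C with siRNA no. 1 (12.9% of all genes were higher) and 1 with siRNA no. 2 (6.39%), 1 in IMR-32 with siRNA no. 1 (13.3%) and 1 with siRNA no. 2 (6.02%). Lower members were 4 of 32 (12.5%) in BE(2)-C with siRNA no. 1 against 11.5% of all genes, and 1 with siRNA no. 2 against 7.54%. In IMR-32 they were 4 with siRNA no. 1 against 10.9%, and 1 with siRNA no. 2 against 7.28%. The shares of lower members were therefore near or below the background, and those of higher members below it. Members were detected on all arrays less often than all genes (21.9% against 38.9%), and differences near background are compressed. The part of this in the shares was not tested. The median log2 difference of the 32 members was -0.03, 0.03, 0.00 and 0.00 (siRNA no. 1 and no. 2 in BE(2)-C, then in IMR-32), and that of all genes was between -0.001 and 0.006. No member passed at 2 or more time points in 1 direction with both siRNAs (0 of 32 in each line by limma, and 0 also at an unadjusted p under 0.05), against 1.01% of all genes in BE(2)-C and 0.758% in IMR-32.

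**Figure D2:**
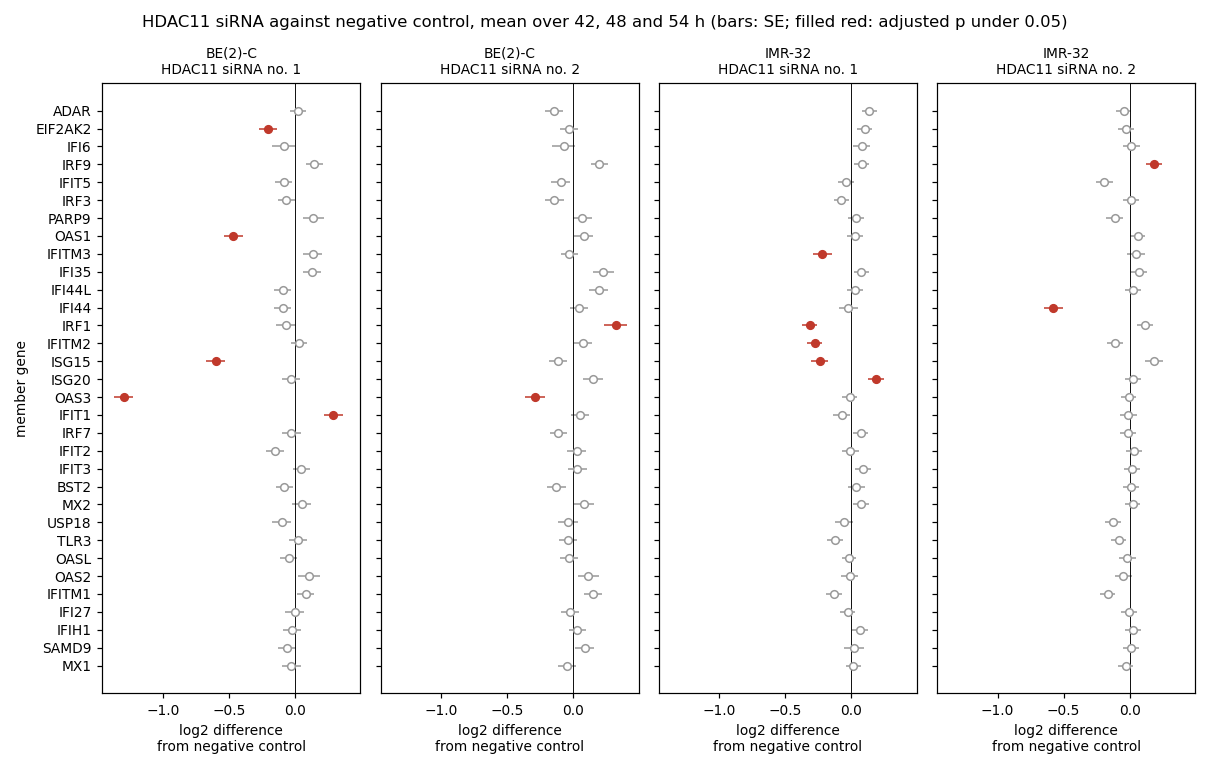
Log2 difference between HDAC11 siRNA and negative control (horizontal axis, mean over 42, 48 and 54 h, bars SE, 6 arrays against 6) of the 32 members in each cell line and siRNA; filled red points have an adjusted p under 0.05. Most points lie near 0, and OAS3 in BE(2)-C with siRNA no. 1, at -1.30, lies farthest from it.

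The oligoadenylate synthetases make 2′-5′ oligoadenylates on double-stranded RNA, which switch on RNase L. OAS1, OAS3 and OAS2 lie next to each other on chromosome 12. OAS3 and OAS1 were lower with siRNA no. 1 in BE(2)-C, and OAS2 was detected on no array. The normalized signals of OAS3 in BE(2)-C were 378 and 441 at 42 h, 510 and 541 at 48 h and 841 and 660 at 54 h in the control arrays. With siRNA no. 1 they were 211 and 216, 248 and 222, and 223 and 206. With siRNA no. 2 they were 367 and 329, 469 and 517, and 494 and 534. All siRNA no. 1 arrays were thus below all control and all siRNA no. 2 arrays, while the siRNA no. 2 arrays overlapped the control arrays. OAS3 was lower by -1.30 ± 0.07 (log2, SE, n = 6 and 6) with siRNA no. 1 (limma, adjusted p = 4.34e-12) and by -0.29 with siRNA no. 2 (adjusted p = 0.0141). The second of these calls was lost when 5 of the 12 arrays were left out in turn, with an adjusted p of up to 0.0714. A second OAS3 probe, detected on no array, differed by -0.15 (adjusted p = 0.165) with siRNA no. 1.

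OAS3 also moved with time. Between 42 and 54 h its mean log2 signal went from 8.67 to 9.54 in the control arrays of BE(2)-C, from 7.74 to 7.74 with siRNA no. 1 and from 8.44 to 9.00 with siRNA no. 2. In controls this rise of 0.87 ± 0.14 passed the threshold (adjusted p = 0.0148), and OAS3 was the only 1 of 32 members that did, against 1.94% of all genes. The call was lost without either 42 h or either 48 h control array (adjusted p 0.0538 to 0.228) and under median scaling. The BE(2)-C control arrays at 54 h, which also enter the 54 h differences below, correlated least of all replicate pairs (0.985, median 0.993). In IMR-32 controls 0 members and 0% of all genes changed between 42 and 54 h by limma, with 0 members at an unadjusted p under 0.05. The difference of siRNA no. 1 from control in BE(2)-C was -0.93 at 42 h, -1.16 at 48 h and -1.80 at 54 h (adjusted p 1.96e-05, 1.02e-06 and 1.52e-09), and that of siRNA no. 2 passed only at 54 h, at -0.54. The change of the siRNA no. 1 difference between 42 and 54 h, -0.86, had an unadjusted p of 6.29e-05 and an adjusted p of 0.723. In this test 0% of all genes passed in any of the 4 comparisons, and unadjusted p was under 0.05 for 1, 2, 4 and 2 members (siRNA no. 1 and no. 2 in BE(2)-C, then in IMR-32).

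OAS1 in BE(2)-C fell with siRNA no. 1. Control signals were 179, 222 and 266 (lowest, median and highest of 6 arrays), those of siRNA no. 1 were 134, 166 and 178, and those of siRNA no. 2 were 204, 232 and 266. The siRNA no. 1 arrays were all below the control arrays, and the siRNA no. 2 arrays spanned the upper part of the control range. OAS1 differed by -0.47 ± 0.07 with siRNA no. 1 (adjusted p = 3.08e-05), and 2 other OAS1 probes by -0.53 and -0.23 (adjusted p 1.15e-06 and 0.0478). The brightest OAS1 probe did not pass with siRNA no. 2, whereas 1 of the others was 0.25 higher (adjusted p = 0.0333). A last OAS1 probe, detected on no array, did not pass (-0.11, adjusted p = 0.339). In the BE(2)-C controls, where OAS3 was higher at 54 h than at 42 h, OAS1 differed by -0.38 with an adjusted p of 0.206. OAS2 and OASL, another member of the family, were detected on no array, so no fold is given for them.

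ISG15 is a ubiquitin-like protein that is conjugated to other proteins in infected cells, and it fell with siRNA no. 1. In BE(2)-C, control signals were 141, 162 and 189, siRNA no. 1 signals 96.5, 109 and 122, and siRNA no. 2 signals 143, 148 and 172. No siRNA no. 1 array overlapped the control arrays, and ISG15 was not detected on any of those 6 arrays. It was therefore at least 1.42-fold lower (measured means 6.75 against 7.35 on the log2 scale, adjusted p = 6.59e-07), where the bound sets the control mean against the lowest signal that counts as detected, or the probe's own where that is higher. In IMR-32, control signals were 118, 136 and 166 and siRNA no. 1 signals 102, 117 and 126, with overlap. The difference of -0.24 (adjusted p = 0.00730) was lost without control 54 h replicate 1, at 0.0639. USP18, which removes ISG15 from proteins, was at background.

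**Figure D3:**
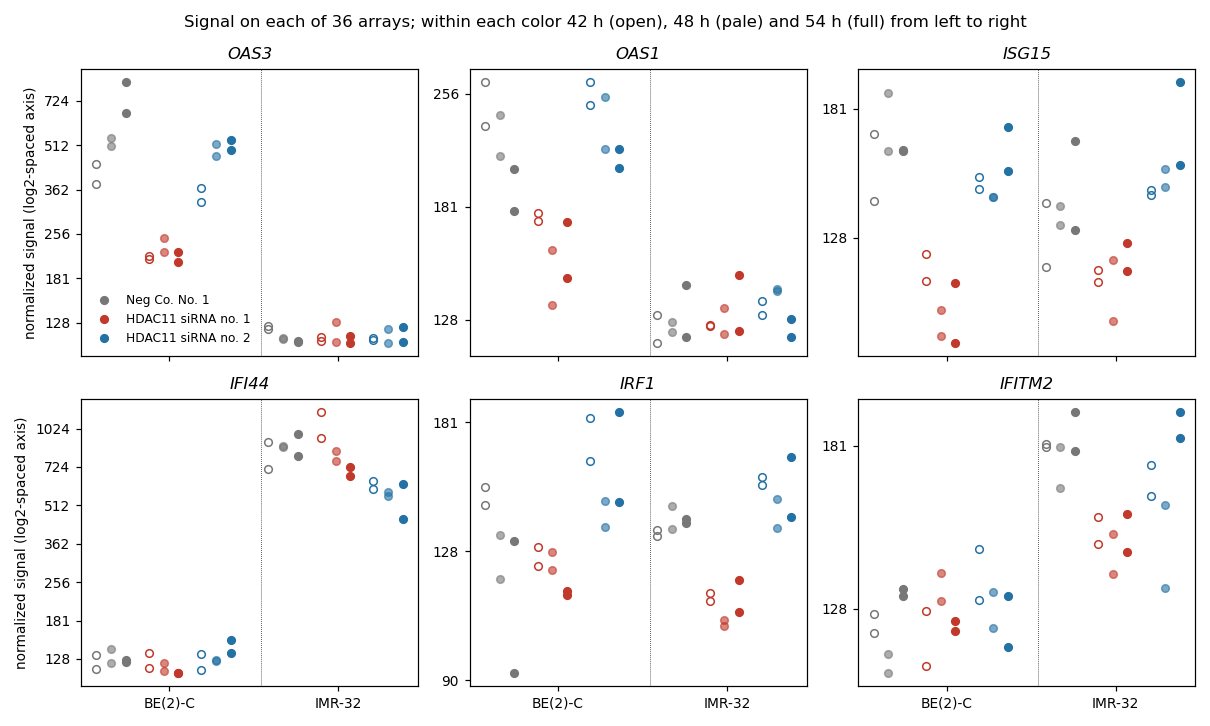
Normalized signal (vertical axis, log2-spaced) of OAS3, OAS1, ISG15, IFI44, IRF1 and IFITM2 on each of the 36 arrays, by cell line, siRNA (colour) and time point. OAS3 with siRNA no. 1 in BE(2)-C stays between 206 and 248 at all times while the control arrays range from 378 to 841, and IFI44 is at 452 to 640 with siRNA no. 2 in IMR-32 against 710 to 976 in the controls.

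The IFIT proteins bind RNA with foreign 5′ ends and block its translation. IFIT1 had control signals of 123, 136 and 143 in BE(2)-C and siRNA no. 1 signals of 137, 161 and 213, and the groups overlapped. It was higher by 0.29 ± 0.07 with siRNA no. 1 (adjusted p = 0.00431), whereas a second IFIT1 probe, detected on 3 of the 36 arrays, differed by -0.01 (adjusted p = 0.972). IFIT2 with siRNA no. 1 differed by -0.15 (adjusted p = 0.192). IFIT2 and IFIT3, and IFIT1 and IFIT5, are neighbours on chromosome 10. IFIT2, IFIT3 and IFIT5 passed the test with neither siRNA in either line, and IFIT5, which was detected on all arrays, had group medians of 175 to 198.

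IFI44 and IFI44L are neighbours on chromosome 1 and of poorly known biochemical function. In IMR-32, IFI44 signals were 710, 868 and 976 in the controls and 452, 586 and 640 with siRNA no. 2, without overlap. The difference was -0.58 ± 0.07 (adjusted p = 6.18e-07), with -0.62 at 48 h and -0.74 at 54 h past the threshold. With siRNA no. 1 the signals were 937 and 1193 at 42 h, 767 and 838 at 48 h and 665 and 723 at 54 h. At 42 h this was 0.40 above the control (adjusted p = 0.0386), and the change of the difference from 42 to 54 h was -0.75 (unadjusted p = 1.14e-04, adjusted p = 0.886). In BE(2)-C, IFI44 was detected on 8 of 18 arrays and passed with neither siRNA. IFI44L passed against control in none of the 4 comparisons.

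Of the transcription factors, IRF1 gave the clearest result, in IMR-32 with siRNA no. 1. Control signals were 133, 137 and 144, siRNA no. 1 signals 105, 110 and 118, and siRNA no. 2 signals 136, 150 and 165. IRF1 was detected on all 6 control arrays and on none of the 6 siRNA no. 1 arrays, with no overlap, and was at least 1.21-fold lower (measured means 6.79 against 7.11, adjusted p = 4.38e-05). IRF1 was 0.32 higher in BE(2)-C with siRNA no. 2 (adjusted p = 0.0164). Here 1 control array at 54 h, the array with the highest OAS3 signal, was at 92.2 while the other 5 were at 119 to 152. The call was lost without 6 of the 12 arrays, with an adjusted p of up to 0.0918. IRF9, the DNA-binding partner of STAT2, had signals of 242, 263 and 307 in the IMR-32 controls and 268, 306 and 333 with siRNA no. 2. Its rise of 0.18 (adjusted p = 0.0441) was lost without 8 of 12 arrays, with an adjusted p of up to 0.155, and under 3 other settings. IRF3, which turns on interferon genes, and IRF7, which amplifies them, passed in none of the 4 comparisons.

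The IFITM proteins hinder the fusion of viruses with cell membranes, and their genes lie side by side on chromosome 11. IFITM2 signals in IMR-32 were 165, 181 and 194 in the controls and 138, 148 and 156 with siRNA no. 1, without overlap, a difference of -0.28 ± 0.06 (adjusted p = 3.72e-04). IFITM3 signals were 152, 182 and 201 and 131, 150 and 170, with overlap. Its difference of -0.22 (adjusted p = 0.0296) was lost without 6 of 12 arrays, with an adjusted p of up to 0.187, and under median scaling and background correction. The 2 genes are near-identical paralogs, and whether their probes bind each other's transcript was not tested.

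Among the remaining effectors, EIF2AK2 signals in BE(2)-C were 686, 804 and 840 in the controls and 570, 681 and 807 with siRNA no. 1, with overlap. The difference of -0.20 (adjusted p = 0.0456) was lost without 9 of 12 arrays, with an adjusted p of up to 0.200, and in 4 other settings. ISG20, a 3′ to 5′ exonuclease of single-stranded RNA, was at 140, 152 and 160 in IMR-32 controls and at 158, 171 and 191 with siRNA no. 1. Its rise of 0.19 (adjusted p = 0.0240) was lost without 6 of 12 arrays, at up to 0.139. ADAR, IFI6 (a mitochondrial protein that counters apoptosis), IFI35, PARP9, BST2 and MX2 passed with neither siRNA in either line. For ADAR, group medians ran from 2272 to 3124.

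The HDAC11 siRNAs were then compared directly, 6 arrays against 6. In BE(2)-C, 1 member was higher with siRNA no. 1 than with no. 2 (16.1% of all genes) and 5 were lower (13.7%). OAS3 was lower by -1.01 (adjusted p = 9.75e-13), OAS1 by -0.55 (3.65e-07), IRF1 by -0.39 (5.05e-05) and IFI44L by -0.29 (0.00142), and ISG15 was at least 1.31-fold lower (8.62e-07). IFIT1 was 0.24 higher (adjusted p = 0.0170), which was lost without 5 of 12 arrays, at up to 0.0987, and turned to -0.13 with its second probe. In IMR-32, 2 members were higher (15.1% of all genes) and 4 lower (13.1%). IFI44 was 0.56 higher (adjusted p = 6.73e-08), ISG15 was lower by -0.42 (1.65e-06) and IFITM3 by -0.27 (0.00156), and IRF1 was at least 1.31-fold lower (3.92e-07). ADAR, higher by 0.18, and IFITM2, lower by -0.17, had an adjusted p of 0.0256 and 0.0473, and lost the call without 6 and 8 of 12 arrays, at up to 0.114 and 0.219. ISG15 and IRF1 were thus lower with siRNA no. 1 than with no. 2 in each cell line.

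The cell lines were compared on their control arrays. There 6 of 32 members (18.8%) were higher in IMR-32 than in BE(2)-C (20.8% of all genes) and 8 (25.0%) were lower (18.9%), shares near the background. Over all genes 52.4% of the calls were higher in IMR-32, and 62.5% were under median scaling. IFI44 was at 117, 126 and 140 in BE(2)-C, where 3 of 6 control arrays detected it, and at 710, 868 and 976 in IMR-32, a difference of 2.74 ± 0.07 (adjusted p = 2.79e-19). OAS3 went the opposite way, from 378, 526 and 841 in BE(2)-C to 110, 113 and 125 in IMR-32, where no control array detected it, and was at least 4.65-fold lower (adjusted p = 3.91e-18). IFI6 was at 539, 658 and 828 in BE(2)-C and at 260, 313 and 336 in IMR-32. This was -1.08 ± 0.09 (adjusted p = 4.44e-10), and its second probe gave -0.43 (1.68e-05). None of these 3 genes overlapped between the lines.

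Smaller differences between the lines ran in both directions. OAS1 was lower in IMR-32 by -0.80 (adjusted p = 9.09e-10) and IRF7 by -0.29 (5.67e-04), and IFIT2 was at least 1.27-fold lower (2.55e-05). IFITM2 was higher by 0.55 (5.86e-08) and IFITM3 by 0.38 (1.80e-04), and ISG20 was at least 1.26-fold higher (5.66e-05). The IRF7 direction rests on 1 probe, since another, detected on no array, gave 0.07. For ISG15 (-0.25, adjusted p = 0.0109), IRF3 (-0.21, 0.0187), BST2 (-0.20, 0.0317), IRF9 (0.20, 0.0176) and ADAR (0.16, 0.0446), the call was lost without 3 to 9 of the 12 arrays, with an adjusted p of up to 0.153. ADAR turned to -0.20 (adjusted p = 0.0305) with its second probe.

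**Figure D4:**
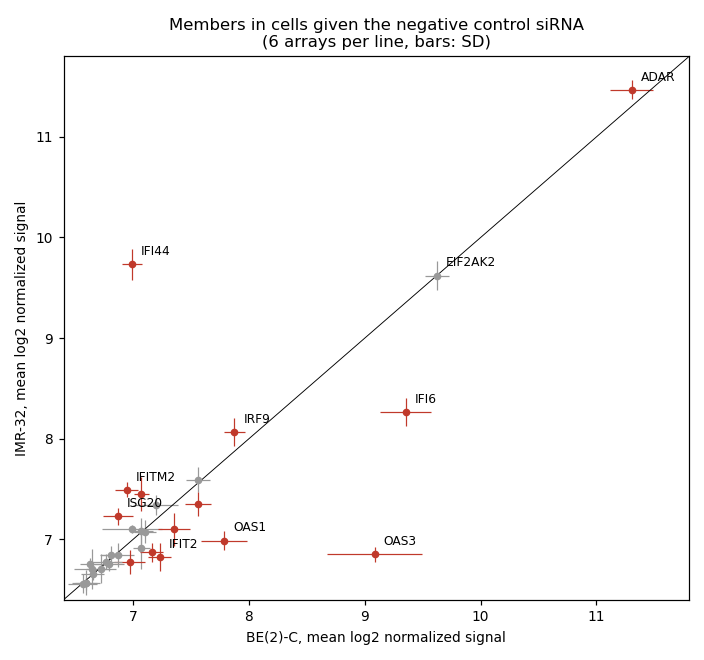
Mean log2 normalized signal of the 32 members in control siRNA arrays of BE(2)-C (horizontal axis) and IMR-32 (vertical axis), 6 arrays each, bars SD; red points have an adjusted p under 0.05 and the line marks equal signal. IFI44 lies 2.74 above the line, and OAS3, IFI6 and OAS1 lie below it.

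The siRNA effects were also compared between the cell lines, by the interaction of siRNA and line. The fit used all 36 arrays, of which 24 enter each difference. It passed for 7 of 32 members with siRNA no. 1, against 13.1% of all genes, and for 2 with siRNA no. 2, against 4.88%. OAS3 led those of siRNA no. 1 (1.29 ± 0.09 less negative in IMR-32, adjusted p = 3.03e-15), but was detected on 1 of 18 arrays of that line, where no fall could be measured. IFI44 led those of siRNA no. 2 (-0.62 ± 0.10, adjusted p = 7.86e-05), and was on 8 of 18 BE(2)-C arrays above background.

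Other genes of the interferon pathway were taken from lists of 108 genes with a probe that are not members. In BE(2)-C, siRNA no. 1 raised 11 and lowered 10 of them (12.9% and 11.5% of all genes), and siRNA no. 2 raised 4 and lowered 7 (6.39% and 7.54%). In IMR-32, siRNA no. 1 raised 9 and lowered 4 (13.3% and 10.9%), and siRNA no. 2 raised 7 and lowered 3 (6.02% and 7.28%). These all-gene shares are also the background of the lists that follow, which hold few genes each, and nothing particular to a list is read from its counts. Of 21 interferon genes, 12 were detected on no array and 0 on all, and IFNA21 was detected most often, on 8 BE(2)-C and 8 IMR-32 arrays. Among the interferons only IFNA1 passed against control (0.18 in IMR-32 with siRNA no. 1, adjusted p = 0.0258), which was detected on no IMR-32 array and lost the call without 6 of 12 arrays, at up to 0.114.

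Of 9 receptor and Janus kinase genes, 7 were detected on all arrays. With siRNA no. 1, 3 fell and 0 rose in BE(2)-C (11.5% and 12.9% of all genes), and 2 fell and 0 rose in IMR-32 (10.9% and 13.3%). With siRNA no. 2, 1 fell and 1 rose in BE(2)-C, and 0 fell and 1 rose in IMR-32. IFNAR1, a chain of the receptor for type I interferon, went from 228, 344 and 383 to 158, 197 and 237 with siRNA no. 1 in BE(2)-C, with overlap, a difference of -0.72 ± 0.09 (adjusted p = 1.27e-06). In IMR-32 it went from 219, 235 and 259 to 179, 193 and 219, by -0.30 ± 0.06 (adjusted p = 1.43e-04). IFNGR1, a chain of the receptor for interferon gamma, was lower by -0.56 in BE(2)-C with siRNA no. 1 (1.72e-06), and IFNGR2, the other chain, by -0.31 in IMR-32 (7.91e-05). The siRNA no. 1 effect on IFNGR1 differed between the lines by 0.59 (2.19e-06). With siRNA no. 2, IL10RB was higher by 0.48 (1.77e-05) and IFNAR2 lower by -0.27 (0.0173) in BE(2)-C. IFNGR1 was 0.20 higher in IMR-32 with siRNA no. 2 (0.0317). The IFNAR2 and IFNGR1 calls were lost without 5 and 8 of 12 arrays, at up to 0.0869 and 0.170. IFNAR1 was also lower with siRNA no. 1 than with no. 2, by -0.80 in BE(2)-C (1.04e-09) and by -0.46 in IMR-32 (7.15e-08).

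STAT3, which carries signals of the interleukin 6 family and is also phosphorylated after interferon, was the 1 of 5 further STAT and IRF genes to change against control. Its BE(2)-C signals were 605, 729 and 831 in the controls, 483, 583 and 635 after siRNA no. 1, and 431, 520 and 629 after siRNA no. 2. In IMR-32 they were 1016, 1145 and 1212 in the controls, 818, 890 and 993 after siRNA no. 1, and 749, 834 and 942 after siRNA no. 2. All siRNA arrays in IMR-32 were below all control arrays, and in BE(2)-C the ranges overlapped. STAT3 fell by 0.33 (adjusted p = 0.00120) and 0.46 (8.81e-05) in BE(2)-C and by 0.33 (4.27e-05) and 0.43 (4.46e-06) in IMR-32, with siRNA no. 1 and no. 2 respectively, each pair against shared controls.

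**Figure D5:**
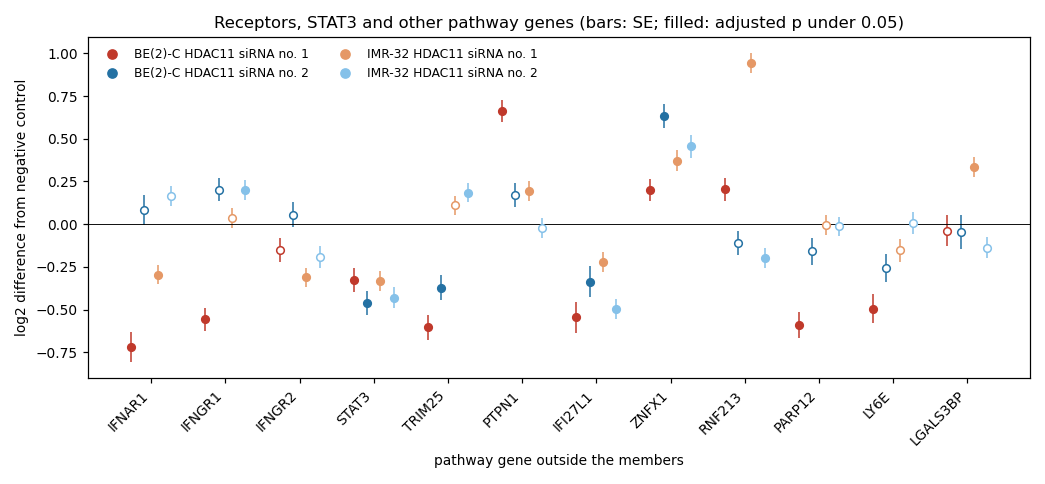
Log2 difference from negative control (vertical axis, bars SE) of 12 pathway genes outside the members in each cell line and siRNA; filled points have an adjusted p under 0.05. STAT3 is below 0 in all 4 comparisons, and RNF213 in IMR-32 with siRNA no. 1 is at 0.94.

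Among 18 sensors and adaptors, siRNA no. 1 raised 4 and lowered 2 in BE(2)-C (12.9% and 11.5% of all genes), and siRNA no. 2 raised 2 and lowered 2 (6.39% and 7.54%). In IMR-32 they raised 1 and 3 and lowered none. TRIM25, a ubiquitin ligase that acts on the sensor RIG-I, was lower in BE(2)-C by -0.60 with siRNA no. 1 (adjusted p = 1.54e-06) and by -0.37 with siRNA no. 2 (0.00136). In IMR-32 it was 0.18 higher with siRNA no. 2 (0.0404), which was lost without 11 of 12 arrays, at up to 0.149. Its effects differed between the lines by 0.71 with siRNA no. 1 (1.21e-07) and by 0.56 with siRNA no. 2 (7.86e-05). Of 10 inhibitors, siRNA no. 1 raised 3 and lowered 0 in BE(2)-C (12.9% and 11.5% of all genes), with PTPN1, a phosphatase of Janus kinases, at 0.66 (5.13e-08). There siRNA no. 2 raised 0 and lowered 1, and in IMR-32 siRNA no. 1 raised 2 and siRNA no. 2 raised 1, with 0 lowered by either.

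Of 45 other interferon-induced genes, siRNA no. 1 raised 4 and lowered 4 in BE(2)-C (12.9% and 11.5% of all genes), and siRNA no. 2 raised 1 and lowered 2 (6.39% and 7.54%). In IMR-32, siRNA no. 1 raised 5 and lowered 1, and siRNA no. 2 raised 2 and lowered 2. RNF213, a large ubiquitin ligase that acts against bacteria and viruses, went from 174, 201 and 215 to 311, 386 and 419 in IMR-32 with siRNA no. 1, without overlap (0.94 ± 0.06, adjusted p = 4.84e-14). ZNFX1, a helicase that binds viral RNA, was higher by 0.63 in BE(2)-C with siRNA no. 2 (9.63e-07). In IMR-32 it was higher by 0.37 with siRNA no. 1 (2.48e-05) and by 0.45 with siRNA no. 2 (6.29e-06). In BE(2)-C with siRNA no. 1, ZNFX1 signals were 250, 285 and 319 against 229, 249 and 265 in the controls, with overlap. PARP12, an ADP-ribosyltransferase, was lower by -0.59 (2.23e-06), and LY6E, a surface protein, by -0.50 (1.03e-04), in BE(2)-C with siRNA no. 1. IFI27L1 was lower in BE(2)-C by -0.55 with siRNA no. 1 (5.50e-05) and by -0.34 with siRNA no. 2 (0.0173). The latter call was lost without 5 of 12 arrays, at up to 0.0717. In IMR-32 with siRNA no. 2, IFI27L1 was lower by -0.50 (3.28e-07). With siRNA no. 1 there, its signals were 685, 710 and 763 against 782, 837 and 903 in the controls, without overlap. Between control arrays, 17 of the 108 pathway genes were higher in IMR-32 (20.8% of all genes) and 13 lower (18.9%). UBE2L6, the enzyme that passes ISG15 to its ligase, was at 1080, 1112 and 1169 in IMR-32 and was detected on no BE(2)-C array, at least 9.67-fold higher in IMR-32 (1.53e-21), whereas LGALS3BP, a secreted glycoprotein, was lower there by -2.75 (7.97e-18).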

How the data were processed

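The authors averaged single-bead values per probe after dropping outliers beyond 2.5 MAD. The deposited table gives these averages as linear, non-normalized intensities, each with a deposited detection p-value, which was two-sided around the background. The authors also deposited a matrix of normalized intensities, which was used only as an alternative. Which scanner software was used is not given in the sources used here. The labels and the methods differ in the RNA amount for labelling and in the catalogue number of the negative control siRNA, which was taken as 1 reagent. Of 47323 probes, 3 with blank cells or values of 0 were left out. Intensities of the 36 arrays were quantile-normalized together and log2-transformed, without background correction or filter. Tests used limma 3.58.1 under R 4.3.3, with 1 coefficient per siRNA and time point. Plots were made with Python 3.11.15 and matplotlib 3.10.9. p-values were adjusted by the method of Benjamini and Hochberg over all 47320 probes, with a threshold of 0.05, and the script was tested on simulated data. Background centres were medians over probes whose detection p exceeded 0.98. Each gene was read from its brightest probe (12 members had over 1). Group values are given for members that passed against control and for the largest differences in the other comparisons. Pathway genes given with a difference passed and were among the 3 largest changes of their list, and not all such genes are named. The number of arrays limits the precision. The members and lists were chosen with earlier results of these data known. Alternatives were other scalings, background correction, a filter on dim probes, another variance model, a replicate block, other probes, a stricter threshold and leaving out each array. Correlations of deviations gave no sign that replicate numbers pair samples (18 values, -0.01 to 0.07). With 2 replicates per group this does not exclude a pairing.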

Additional observations from a re-analysis of the deposited data

Results flagged for a closer look

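Effects of the same siRNA differed between the cell lines for the following members, given as the effect in IMR-32 minus that in BE(2)-C. The interaction was fitted in limma over all 36 arrays, of which 24 enter each difference. With siRNA no. 1 the differences were 1.29 for OAS3 (adjusted p = 3.03e-15), 0.49 for OAS1 (1.40e-04), 0.36 for ISG15 (0.0115), -0.36 for IFIT1 (0.010), -0.31 for IFITM2 (0.0125), -0.35 for IFITM3 (0.0187) and 0.30 for EIF2AK2 (0.0258). OAS3 and IFIT1 were near background in IMR-32, detected on 1 and 2 of 18 arrays. OAS1 was at 119 to 142 in the IMR-32 controls, so a fall there would be compressed. IFITM2 was detected on 7 and IFITM3 on 12 of 18 BE(2)-C arrays, and ISG15 on 12 BE(2)-C and 13 IMR-32 arrays. The IFIT1 call was lost without IMR-32 control 48 h replicate 1 (adjusted p = 0.0502), and the ISG15 call without IMR-32 control 54 h replicate 2 (0.0520). Those of EIF2AK2 and IFITM3 were lost without 6 of the 24 arrays each, at up to 0.0940 and 0.0803. The OAS1 call was lost with the probe with the largest F, and that of ISG15 under median scaling. That of EIF2AK2 was lost under median scaling and background correction. With siRNA no. 2 the difference was -0.62 for IFI44 (7.86e-05), which was detected on 8 of 18 BE(2)-C arrays. The IFITM1 probe also passed (-0.32, 0.0197), but it was detected on no array, so this value compares signals at background and gives no difference in expression. It lost the call without 5 of the 24 arrays, at up to 0.0636.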

How the results depend on the processing

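Counts of members were compared with those under 10 other settings and after leaving out each array in turn. Of 232 counts under other settings, 200 stayed within 1.5 times the reported count. Under median scaling, IMR-32 with siRNA no. 2 had 0 higher and 2 lower members, siRNA no. 1 against no. 2 in IMR-32 had 4 higher, and BE(2)-C controls had 0 that changed from 42 to 54 h. The share of all calls that were higher was 25.2% there against 45.9% for siRNA no. 2 in BE(2)-C, 30.1% against 45.3% for siRNA no. 2 in IMR-32, and between cell lines 62.5% under median scaling and 64.2% with normalization per cell line, against 52.4%. With normalization per cell line, 2 were higher in siRNA no. 1 against no. 2 in BE(2)-C, as also without dim probes and with an intensity trend. The authors' matrix and background correction each left 0 higher in IMR-32 with siRNA no. 2, and the latter 1 higher in siRNA no. 1 against no. 2 in IMR-32. Without dim probes (22 members left) there were 2 higher in BE(2)-C with siRNA no. 2, 2 higher in IMR-32 with siRNA no. 1 and 2 lower with siRNA no. 2. The intensity trend gave the same 2 and 2 in IMR-32. Fitting all 18 arrays of a line gave 2 higher in BE(2)-C with siRNA no. 2 and 2 that changed with time. The probe with the largest F gave 0 higher in BE(2)-C with siRNA no. 1, 2 with siRNA no. 2, 0 in siRNA no. 1 against no. 2, and 1 in IMR-32. It turned IFIT1 in BE(2)-C to -0.0087 against control and -0.13 against siRNA no. 2, and IRF7 and ADAR between lines to 0.067 and -0.20. Requiring an adjusted p under 0.01 gave 0 higher and 0 lower in BE(2)-C with siRNA no. 2, 0 higher in IMR-32 with each siRNA, 0 (BE(2)-C) and 1 (IMR-32) higher in siRNA no. 1 against no. 2, 5 lower between lines, 0 that changed with time in BE(2)-C, and 2 and 1 interactions. The cause of these changes was not tested.

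With the replicate number as a block, lower members in IMR-32 with siRNA no. 2 were 2 instead of 1. No other count moved by over 1.5 times. The correlations had given no sign that this number pairs samples, without excluding it. Comparisons within control arrays could not be fitted with the block. Leaving out each array gave 0 to 2 higher and 1 to 2 lower in IMR-32 with siRNA no. 2, 0 to 1 higher and 2 to 4 lower with siRNA no. 1, 0 to 2 higher and 0 to 1 lower in BE(2)-C with siRNA no. 2, 0 to 2 higher (BE(2)-C) and 1 to 3 higher (IMR-32) in siRNA no. 1 against no. 2, 1 to 3 interactions of siRNA no. 2, 0 to 2 members that changed with time in BE(2)-C controls, and 0 to 1 whose siRNA no. 1 effect changed with time in BE(2)-C. The other counts stayed within 1.5 times. For single genes, 192 of 1494 values lost their call when an array was left out. Signal over background limits all values near 100.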
